A study of Homo sapiens with 12 samples.

Results

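The 221 splicing events described here are all listed retained introns, alternative 3′ splice sites, alternative 5′ splice sites and mutually exclusive exons in HCT116 cells, taken from 8 of the authors' deposited tables, 4 for MTAP-null and 4 for MTAP-WT. They were chosen by event type alone and make up 221 of 2365 listed regions. The other listed regions are 337 skipped exons and the detained-intron features, introns that stay in polyadenylated nuclear RNA. HCT116 is an established human colon cancer line. The 4 groups were MTAP-null cells treated with AGI24512, MTAP-null cells treated with the solvent DMSO, MTAP-WT cells treated with AGI24512 and MTAP-WT cells treated with DMSO, with 3 libraries each and 12 in all. Both forms are engineered HCT116 lines obtained from Horizon Discovery. The labels state neither the number of clones behind a form nor the dose or duration, and they do not call the replicates separate cultures. AGI24512 inhibits MAT2A, the enzyme that makes S-adenosylmethionine. The cell type could not be checked by expression, because the tables hold splicing events only. None of 8 colon epithelial and none of 4 fibroblast marker genes had a listed event of these 4 types.

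MTAP recycles methionine from methylthioadenosine. Without it methylthioadenosine builds up and partly inhibits PRMT5, the arginine methyltransferase that modifies Sm proteins and many splicing factors, and PRMT5 also needs S-adenosylmethionine. During splicing, U1 snRNP marks the 5′ splice site (donor), U2AF and U2 snRNP mark the 3′ splice site (acceptor), and the choice between nearby sites sets which segment stays in the mRNA. A retained intron keeps the whole intron, an alternative site adds or removes a stretch at one exon end, and mutually exclusive exons replace each other. Retained introns often bring a stop codon into the reading frame, or hold the transcript in the nucleus.

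In the deposited tables, each event has an inclusion level per library, a fraction between 0 and 1 of the transcripts that carry the longer form. For mutually exclusive exons it is the fraction with the exon nearer the 5′ end of the gene. The levels belong to set 1 and set 2, each of 3 libraries of one genotype, and the table headers do not say which treatment is which set. Directions below are therefore set 1 against set 2, the difference is the level in set 1 minus that in set 2, and no treatment is assigned to either. Levels, differences and FDRs of events are the authors' deposited values throughout. Every listed event had an FDR under 0.05. Events that did not reach it were not analysed here.

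The sequences below show the splice sites that the results turn on. They were read from GENCODE 29 transcripts (GRCh38) that contain the segment, 5′ to 3′ on the strand of the gene. For the first 8, the capitals mark the first 6 bases of the retained intron, which form its donor, after 12 bases of exon. The introns are LUC7L at chr16:227337-228332 (minus), the 2 of LUC7L3 at chr17:50750642-50750746 and chr17:50750853-50752199 (plus), CIRBP at chr19:1272052-1274306 (plus), RBM39 at chr20:35740598-35740823 (minus), OGG1 at chr3:9756817-9757043 (plus), TCEB2 at chr16:2771605-2771993 (minus) and, in MTAP-WT, KIF18B at chr17:44926187-44926413 (minus).
LUC7L: gttcatcgagccGTGAGTcacaaccaattt
LUC7L3, 105-base intron: ttaaatctgaagGTGACActcagtccaatt
LUC7L3, 1347-base intron: aaacattttgagGTACATtgttttgtctca
CIRBP: atgacagttacgGTAAGTcacactccgagg
RBM39: ccttacaagaagGTGAGAaaaaacatgtcg
OGG1: tgggcccaagcgGTGAGTgtacctaggtgt
TCEB2: acaagccgtgcaGTGAGGacccccaagagg
KIF18B: ttgtactcccagGTGACTggcactagggac

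The next 5 are 3-base tandem acceptors, shown because this spacing recurs in both genotypes. All 5 add CAG, but among those not printed the 3 bases were TAG in AKAP13 (MTAP-WT) and AAG in C5orf22 (MTAP-null). The capitals mark the 3 bases that the longer form adds, followed by 12 bases of the exon. In MTAP-WT these are PER3 at chr1:7793957-7793959 (plus), DCLK2 at chr4:150220703-150220705 (plus), GUCD1 at chr22:24543098-24543100 (minus) and CEACAM19 at chr19:44683434-44683436 (plus). The MTAP-null one is AHCYL2 at chr7:129379638-129379640 (plus). CEACAM19 has 9 more bases before the segment in the annotated exon.
PER3: CAGctgcacggtatg
DCLK2: CAGatttctgctcat
GUCD1: CAGgaatgtgcagca
CEACAM19: ccccccaagCAGgacctgctaaac
AHCYL2: CAGatccagtttgct

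The last 5 are donors inside a coding exon, shown because they belong to splicing factors, have a short segment or were listed in both genotypes. The capitals mark the start of the segment, up to 6 bases, or all of it for PPIE and MYCBP2. They are HNRNPC at chr14:21230958-21230996 (minus), HNRNPU at chr1:244863617-244863673 (minus), PPIE at chr1:39738924-39738931 (plus), MYCBP2 at chr13:77076751-77076759 (minus) and UFD1L at chr22:19475470-19475495 (minus).
HNRNPC: ggagatgtacggGTCAGTaacagaacaccc
HNRNPU: agcaggcgggagGTAAGAagaaggcggaag
PPIE: caagcgcgtcttGTACGTGG
MYCBP2: ggagaagaaaaaGTATACAAT
UFD1L: gcctaatgacagGTCAGAtgtggagaaagg

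MTAP-null cells had 183 events in 158 genes and MTAP-WT cells had 38 events in 35 genes. In MTAP-null these were 51 retained introns, 37 alternative 3′ sites, 56 alternative 5′ sites and 39 mutually exclusive exon pairs. In MTAP-WT they were 10, 9, 14 and 5 in the same order of types. The genotypes were tested separately by the authors, so the counts also depend on each test's depth and spread, and the difference between genotypes was not tested. Inclusion was higher in set 1 for 122 of the 183 MTAP-null events (66.7%), beside 55.8% of all 459 listed MTAP-null events with skipped exons included. For MTAP-WT it was higher in set 1 for 13 of 38 (34.2%), beside 49.5% of all 99 listed events. The libraries of the sets did not overlap for 163 MTAP-null events (89.1%), beside 90.2% of all listed, and for 33 MTAP-WT events (86.8%), beside 91.9% of all listed. The overlap shares are near their backgrounds, and the events were listed on the same libraries.

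**Figure D1:**
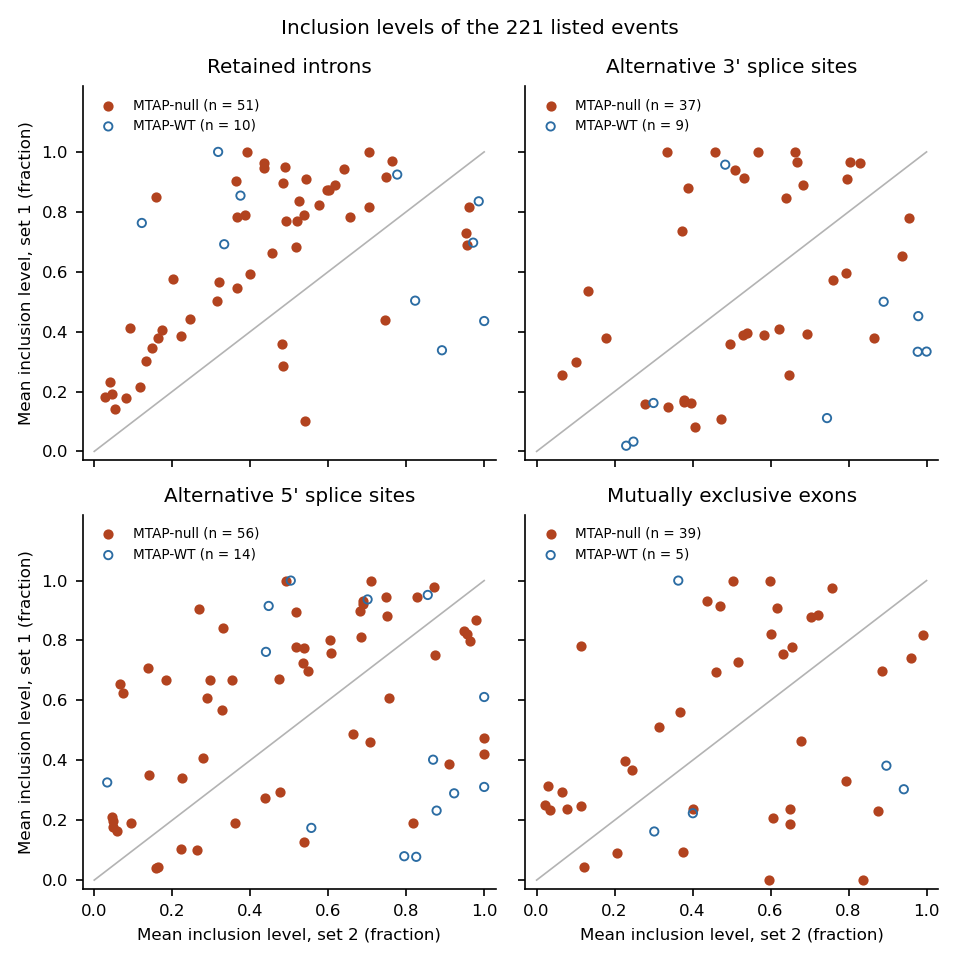
Mean inclusion level in set 1 (vertical axis, fraction) against set 2 (horizontal axis, fraction) for each listed event, by event type, with MTAP-null filled and MTAP-WT open. Points above the grey line are higher in set 1, as are 44 of the 51 MTAP-null retained introns.

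Retained introns were the type with the most one-sided direction in MTAP-null. Of the 51, 44 (86.3%) had a higher level in set 1, against 36 of 56 alternative 5′ sites, 24 of 39 exclusive exon pairs, 18 of 37 alternative 3′ sites and 134 of 276 skipped exons. No test was run between types, because regions are not replicates. In MTAP-WT, 5 of 10 retained introns were higher in set 1. The median level of the MTAP-null retained introns was 0.73 in set 1 and 0.45 in set 2, and the median absolute difference was 0.25. Of the 51, 19 had a mean over 0.8 in set 1 and 3 in set 2, while 5 had a mean under 0.2 in set 1 and 12 in set 2. In 16 introns the mean was above 0.5 in set 1 and below it in set 2, and in 2 introns the reverse held. The intron length had a median of 281 bases, with quartiles of 133 and 1015, and 48 of the 51 matched an annotated intron exactly.

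LUC7L, a homologue of a yeast U1 snRNP protein, had the largest difference among MTAP-null retained introns with at least 20 reads in every library. Its 996-base intron had levels of 1, 0.746 and 0.804 in set 1 and 0.181, 0.202 and 0.093 in set 2. The sets did not overlap, with a difference of 0.691 (authors' FDR 2.66e-09). The level of 1 rests on 29 reads, with a 95% Wilson interval of 0.394 to 1 that covers counting error only. Reads are counted over both forms. Those of the spliced form were 0, 2 and 2 in set 1 and 18, 16 and 32 in set 2.

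Its relative LUC7L3, also linked to U1 snRNP, had 4 listed events at neighbouring sites. The 1347-base intron had levels of 0.833, 0.919 and 0.98 in set 1 and 0.626, 0.533 and 0.471 in set 2, a difference of 0.367. The 105-base intron just upstream had levels of 0.919, 0.906 and 0.797 in set 1 and 0.581, 0.675 and 0.554 in set 2, a difference of 0.271. In both introns every set 1 library lay above every set 2 library. Levels of the 1347-base intron rest on 3, 3 and 1 reads of the spliced form in set 1 and 10, 17 and 16 in set 2. An alternative acceptor of 903 bases and an alternative donor of 510 bases lie inside the longer intron and share its reads, so their differences of 0.381 and 0.377 are not separate measurements.

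CIRBP, a cold-inducible RNA-binding protein, had the deepest retained intron, with 5444 reads in its shallowest library. Levels of the 2255-base intron were 0.765, 0.803 and 0.777 in set 1 and 0.375, 0.368 and 0.353 in set 2. The difference was 0.416, and the libraries within a set spread far less than that. A second CIRBP intron of 208 bases, in the 3′ UTR, had 0.127, 0.212 and 0.235 in set 1 and 0.052, 0.056 and 0.027 in set 2, a difference of 0.146.

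RBM39, a splicing factor related to U2AF, had retained introns of 226 and 1507 bases. The shorter had levels of 0.337, 0.272 and 0.296 in set 1 and 0.183, 0.174 and 0.041 in set 2. The longer had 0.316, 0.345 and 0.471 in set 1 and 0.146, 0.216 and 0.127 in set 2. Neither overlapped between sets, with differences of 0.169 and 0.214. An alternative acceptor of 530 bases differed by 0.201, but it lies inside the longer intron and is not a separate measurement. SFPQ, a nuclear paraspeckle protein and splicing factor, went the other way, with levels of 0.769, 0.741 and 0.934 in set 1 and 1, 1 and 0.887 in set 2. These libraries overlapped, the difference was -0.148 (authors' FDR 0.0306), and its set 2 reads could not be separated by library. Its set 1 levels rest on 11, 17 and 5 reads of the spliced form. PPIL2, a cyclophilin found in spliceosomes, had 0.751, 0.781 and 0.774 in set 1 and 0.45, 0.487 and 0.539 in set 2 for a 1250-base intron in the 3′ UTR.

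**Figure D2:**
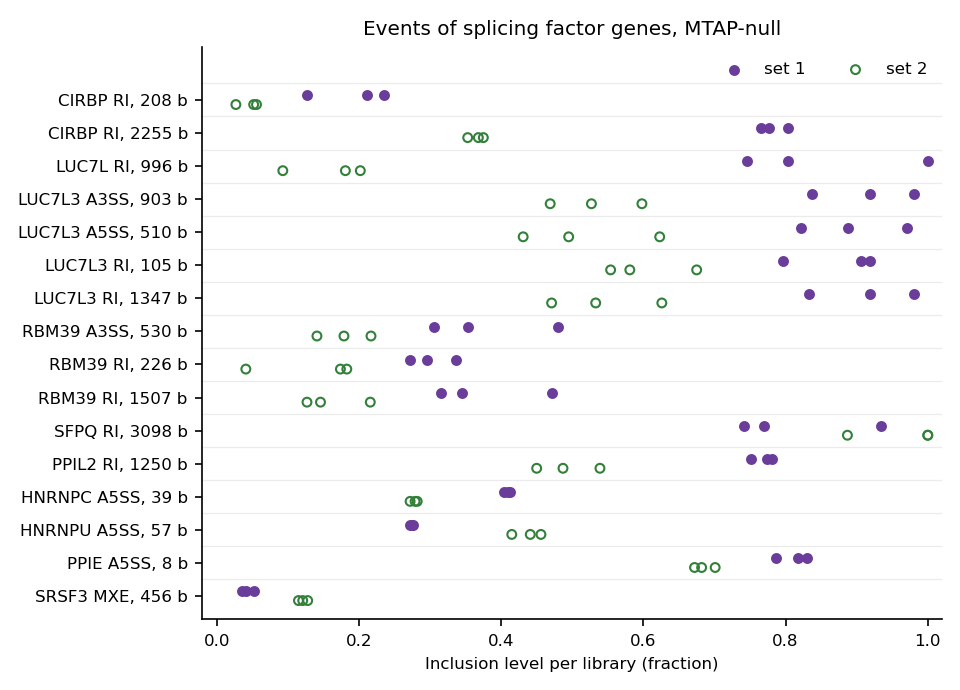
Inclusion level per library (horizontal axis, fraction) for the MTAP-null events of 10 splicing factor genes, with set 1 filled above set 2 open and the segment length in bases (b) beside each name. The set 1 mean lies above the set 2 mean in 13 of the 16 events, beside 122 of all 183 MTAP-null events (66.7%). It lies below in SFPQ, whose libraries overlap, and in HNRNPU and SRSF3. LUC7L3 counts as 4 events and RBM39 as 3, some of which share reads.

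Other retained introns with large differences at this depth were in genes of varied function. TCEB2 encodes elongin B, a transcription elongation and ubiquitin ligase subunit. Its 389-base intron had levels of 0.923, 0.819 and 0.872 in set 1 and 0.599, 0.625 and 0.564 in set 2. ATPIF1, an inhibitor of the mitochondrial ATP synthase, had 0.735, 0.849 and 0.921 in set 1 and 0.461, 0.635 and 0.482 in set 2. CYTH1, an exchange factor for ARF GTPases, had 1, 0.849 and 1 in set 1 and 0.488, 0.327 and 0.654 in set 2, from 31 reads in its shallowest library. Reads of its spliced form were 0, 1 and 0 in set 1 and 3, 8 and 2 in set 2. PRRT4 had 0.745, 0.459 and 0.524 in set 1 and 0.226, 0.188 and 0.193 in set 2. Its spliced form had 1, 6 and 5 reads in set 1 and 18, 18 and 15 in set 2. In each of these 4 the sets did not overlap. CREBZF, a bZIP transcription cofactor, had 2 retained introns, of 1066 and 1791 bases, with differences of 0.248 and 0.251. The SFPQ intron was the longest, at 3098 bases, and the 74-base intron of ANO9, a membrane scramblase, the shortest.

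Among the 7 MTAP-null retained introns higher in set 2, CTNNB1, which encodes beta-catenin, had the most reads among those with readable counts. Its 464-base intron in the 3′ UTR had 0.34, 0.389 and 0.347 in set 1 and 0.499, 0.479 and 0.469 in set 2. An alternative acceptor inside the same intron had 0.381, 0.416 and 0.388 in set 1 and 0.564, 0.535 and 0.521 in set 2. Neither event overlapped between sets, but they share reads, so the acceptor is not a separate measurement.

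Retained introns of DNA repair genes were listed at low depth. OGG1, a glycosylase that removes oxidised guanine, had 1, 1 and 0.884 in set 1 and 0.345, 0.768 and 0.19 in set 2. NEIL1, another glycosylase for oxidised bases, had 1, 0.709 and 1 in set 1 and 0.245, 0.448 and 0.394 in set 2. The shallowest library held 14 reads for OGG1 and 5 for NEIL1. The ribosomal protein gene RPS9 was far deeper, with 668 reads in the shallowest library, and its 90-base intron had 0.566, 0.53 and 0.536 in set 1 and 0.356, 0.361 and 0.378 in set 2.

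In MTAP-WT, 3 of the 10 retained introns had at least 20 reads in every library. TMEM41B, a lipid scramblase of the endoplasmic reticulum, had 0.973, 0.955 and 0.845 in set 1 and 0.712, 0.796 and 0.823 in set 2 for a 2329-base intron. KIF18B, a mitotic kinesin, had 0.852, 0.766 and 0.887 in set 1 and 0.979, 0.979 and 1 in set 2. The non-coding LOC100129917 had 0.57, 0.359 and 0.581 in set 1 and 0.637, 1 and 0.832 in set 2. Reads of the spliced form were few, at 3, 4 and 16 in set 1 and 44, 24 and 20 in set 2 for TMEM41B. They were 8, 12 and 5 in set 1 and 1, 1 and 0 in set 2 for KIF18B. For LOC100129917 they were 5, 8 and 3 in set 1 and 1, 0 and 1 in set 2. CENPT, a kinetochore protein that binds centromeric DNA, had a pair of overlapping introns whose libraries overlapped between sets. Its 346-base intron had 1, 0.562 and 1 in set 1 and 0, 1 and 0.125 in set 2, with 5 reads in the shallowest library. PIDD, a death-domain protein acting downstream of p53, had 0.663, 0.85 and 0.578 in set 1 and 1, 1 and 0.915 in set 2 from at least 18 reads.

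Of the 61 retained introns of both genotypes, 32 lay within the coding part of a GENCODE 29 transcript, 9 in a 5′ UTR, 8 in a 3′ UTR, 7 in a non-coding transcript, and 5 had no match. For 28 of the coding ones the reading frame could be followed into the intron, and 19 of these held a stop codon in that frame. The first stop began at base 62 of the intron at the median, with a range of 2 to 390. In LUC7L, TCEB2 and ATPIF1 the stop began at base 2, within the donor printed above for LUC7L and TCEB2. It began at base 18 and base 83 in the LUC7L3 introns, at 43 in RBM39, at 25 in OGG1, at 62 in RPS9 and at 390 in CIRBP. The 9 without a stop in frame ranged from 74 to 1034 bases and included DNAJC4, ANO9 and PRRT4.

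Pooled over genotypes and directions, the donors of the retained introns held common donor letters at about the share seen in other introns. The letters GTAAG or GTGAG stood at the first bases of 20 of 47 retained introns with a sequence (42.6%), read on the strand of the gene. Among 22534 annotated introns of 50 to 4000 bases that lie inside an exon of another transcript, 42.3% had them. By direction in MTAP-null, they stood in 13 of 36 retained introns higher in set 1 (36.1%) and in all 3 higher in set 2. The last exon base before the donor was G in 80.9% of the retained introns and in 78.9% of the annotated ones, and the median GC content was 54.1% and 54.6%. These are descriptions without a test, and a match to these letters says nothing about the factor that reads them.

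Alternative 3′ splice sites had a median segment of 109 bases in MTAP-null and 3 bases in MTAP-WT. Competing acceptors 3 bases apart accounted for 5 of 37 MTAP-null and 5 of 9 MTAP-WT events. The MTAP-null ones included MTSS1, AHCYL2, KIF3C and C5orf22, and the MTAP-WT ones were PER3, AKAP13, DCLK2, GUCD1 and CEACAM19. All 10 lie in coding sequence, so that use of the upstream acceptor adds 3 bases and keeps the frame. In MTAP-WT, 4 of the 5 were lower in set 1, and in MTAP-null 3 of the 5 were higher in set 1. Reads were few, with between 1 and 19 in the shallowest library of the MTAP-null events and between 3 and 31 in that of the MTAP-WT events.

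AKAP13, a scaffold of protein kinase A signalling, was the only tandem acceptor with at least 20 reads in every library. Its levels were 0.031, 0.026 and 0 in set 1 and 0.142, 0.317 and 0.23 in set 2. PER3, a circadian clock gene, had 1, 1 and 0.872 in set 1 and 0.492, 0.538 and 0.421 in set 2 from at least 6 reads. PER3 also had an alternative donor of 21 bases, with 0, 0.17 and 0.353 in set 1 and 0.766, 0.353 and 0.551 in set 2. AHCYL2, a relative of the enzyme that hydrolyses S-adenosylhomocysteine, had 1, 1 and 1 in set 1 and 1, 0 and 0 in set 2, but on 1 to 3 reads per library. A level of 1 from 1 read had a Wilson interval of 0.201 to 1.

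Among longer alternative acceptors, MMS22L, which acts in repair of stalled replication forks, had 0.274, 0.621 and 0.246 in set 1 and 0.597, 1 and 1 in set 2. Its segment was 2889 bases and the sets overlapped. Reads of the shorter form were 6, 1 and 6 in set 1 and 1, 0 and 0 in set 2. TMEM136 had 3 listed acceptor events around one exon start, with segments of 330, 14 and 11 bases. The longest had 1, 0.93 and 0.884 in set 1 and 0.448, 0.47 and 0.608 in set 2, a difference of 0.429. The 14-base event went the other way, with 0.237, 0.093 and 0.432 in set 1 and 0.681, 0.711 and 0.549 in set 2, and the 11-base event differed by 0.16. GAS8, a subunit of the ciliary dynein regulatory complex, had segments of 123 and 109 bases, with differences of -0.232 and -0.213. The events of each of these genes share reads.

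At high depth, RPL17, a ribosomal protein gene, had 0.607, 0.611 and 0.572 in set 1 and 0.786, 0.794 and 0.799 in set 2, from at least 4206 reads. The segment of 249 bases lies in the 5′ UTR. BCL2L1, whose product guards against apoptosis, had an 18-base acceptor event in the 5′ UTR with 0.397, 0.374 and 0.4 in set 1 and 0.561, 0.604 and 0.585 in set 2. In both genes the sets did not overlap. CEP192, a centrosome scaffold, had a 26-base acceptor with 1, 0.916 and 0.981 in set 1 and 0.723, 0.593 and 0.689 in set 2, on as few as 15 reads. The longest acceptor segment was that of TAB3, a signalling adaptor, at 3595 bases, with 1, 1 and 1 in set 1 and 0.653, 0.322 and 0.394 in set 2. Its set 1 reads could not be separated by library, and the set 2 levels rest on 1, 3 and 2 reads of the shorter form.

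Alternative 5′ splice sites had a median segment of 66 bases in MTAP-null and 58.5 in MTAP-WT, and no pair of donors was 3 bases apart. A spacing of 4 bases occurred in FAM60A, BHLHB9 and ACSF3 in MTAP-null. Of the 70 donor events, both junctions were annotated in GENCODE 29 for 57, as they were for 32 of the 46 acceptor events. Of the 61 donor segments with a sequence, 60 began with GT, the exception being FAM60A. All 42 acceptor segments with a sequence ended with AG. At the inner donor, GTAAG or GTGAG stood in 21 of 58 (36.2%).

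Among splicing factors, HNRNPC, which binds uridine tracts in pre-mRNA, used a 39-base segment more in set 1. Levels were 0.404, 0.413 and 0.409 in set 1 and 0.272, 0.279 and 0.282 in set 2, from at least 5584 reads. HNRNPU, a nuclear scaffold protein, had 0.274, 0.272 and 0.276 in set 1 and 0.441, 0.415 and 0.456 in set 2 for a 57-base segment. Both are coding and divisible by 3, and neither overlapped between sets, in opposite directions. PPIE, a spliceosomal cyclophilin, had an 8-base segment, which shifts the frame, with 0.818, 0.787 and 0.83 in set 1 and 0.701, 0.672 and 0.682 in set 2.

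The largest donor difference at depth in MTAP-null was in IL15, a cytokine gene. Its 476-base segment in the 5′ UTR had 0.18, 0.067 and 0.134 in set 1 and 0.493, 0.576 and 0.546 in set 2. PKM, the pyruvate kinase gene, had a 220-base 5′ UTR segment with 0.664, 0.746 and 0.595 in set 1 and 0.335, 0.432 and 0.292 in set 2. This is not the exclusive exon pair that separates its M1 and M2 isoforms, which was not among the listed exclusive pairs. MYCBP2, a large ubiquitin ligase, had a 9-base coding segment with 0.636, 0.676 and 0.511 in set 1 and 0.29, 0.273 and 0.307 in set 2. ANAPC16, a subunit of the anaphase-promoting complex, had 1 segment of 66 bases listed with 2 different downstream exons, at differences of 0.189 and 0.261. KAT6B, a histone acetyltransferase, had donors of 549 and 876 bases in one exon, at 0.232 and 0.238. TRIM7, a ubiquitin ligase, had 0.54, 0.626 and 0.534 in set 1 and 0.334, 0.376 and 0.27 in set 2.

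IARS, the cytosolic isoleucyl-tRNA synthetase, had a smaller but tight difference, with 0.191, 0.178 and 0.204 in set 1 and 0.366, 0.357 and 0.36 in set 2. NCAPG, a condensin subunit, had 0.273, 1 and 0.693 in set 1 and 0.2, 0 and 0 in set 2, with 1 read in its shallowest library. Donor segments reached 2970 bases in C5orf42.

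PRMT5 itself had a listed alternative donor in MTAP-WT. The 85-base segment spans the edge of the coding region at chr14:22929167-22929251 (GRCh38, minus) and is not divisible by 3. Its levels were 0.795, 0.79 and 0.701 in set 1 and 0.397, 0.439 and 0.485 in set 2, from at least 126 reads per library. The lowest set 1 value had a 95% Wilson interval of 0.606 to 0.781 and the highest set 2 value one of 0.398 to 0.572, for counting error only. The difference was 0.322 (authors' FDR 5.76e-07). No PRMT5 event of these 4 types was listed in MTAP-null. The other 3 MTAP-WT donors with at least 20 reads in every library were C1orf86, with a difference of -0.646, VPS52, a vesicle tethering subunit, at 0.236, and UFD1L, at 0.097, which is described with the events of both genotypes. The highest C1orf86 level in set 1, 0.363, had a 95% Wilson interval of 0.131 to 0.684. Its lowest level in set 2, 0.634, had one of 0.231 to 0.909, so these intervals overlapped.

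Mutually exclusive pairs had a median 5′ exon of 96 bases in MTAP-null and 117 in MTAP-WT. In MTAP-null, 3 of 39 pairs had exons of equal length and 20 had lengths that differed by a multiple of 3. TNRC6A, a GW182 protein of microRNA silencing, had 1 exon of 48 bases paired with 2 different partners. In the larger event it had 0.148, 0.192 and 0.222 in set 1 and 0.648, 0.577 and 0.727 in set 2, and in the other 0.062, 0.13 and 0.085 in set 1 and 0.388, 0.289 and 0.449 in set 2. CDKL1, a kinase of the cyclin-dependent family, had 0.516, 0.163 and 0.312 in set 1 and 0.778, 0.795 and 0.804 in set 2. CASK, a membrane scaffold, had 0.735, 0.63 and 0.717 in set 1 and 0.45, 0.466 and 0.462 in set 2. ANXA2, a calcium-dependent membrane-binding protein, had 0.736, 0.742 and 0.711 in set 1 and 0.509, 0.517 and 0.523 in set 2. In all these pairs the sets did not overlap.

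CD44, the hyaluronan receptor with a block of variable exons, had 4 exclusive pairs built from 5 exon forms, all higher in set 1. The pair with the largest difference, 0.194, joined exons of 129 and 129 bases, with 0.574, 0.554 and 0.559 in set 1 and 0.372, 0.362 and 0.37 in set 2. The other 3 differed by 0.124, 0.124 and 0.132. SNHG5, a host of small nucleolar RNAs, had 2 pairs that share an 81-base exon, with differences of -0.213 and 0.125, so that exon was the less used one in set 1 both times. SRSF3, an SR protein, had a 456-base exon with 0.035, 0.041 and 0.052 in set 1 and 0.121, 0.128 and 0.115 in set 2, the smallest difference of the type. IFIT1, an interferon-induced gene, had 4 pairs that combine 2 forms of each exon, with differences between 0.2 and 0.284 on few reads. RCC1, the exchange factor for Ran, had 2 pairs at 0.165 and 0.174, and RUVBL2, an AAA+ ATPase, 2 at 0.445 and 0.495.

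In MTAP-WT, LSM14B, an RNA-binding protein of P-bodies, had 2 pairs with the same 117-base exon. Levels were 0.187, 0.214 and 0.269 in set 1 and 0.424, 0.359 and 0.419 in set 2 for the larger difference, and 0.139, 0.155 and 0.193 in set 1 and 0.3, 0.265 and 0.34 in set 2 for the other. CDK12, a kinase of elongating RNA polymerase II, had 0.346, 0.559 and 0.241 in set 1 and 0.899, 1 and 0.792 in set 2 on as few as 2 reads.

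**Figure D3:**
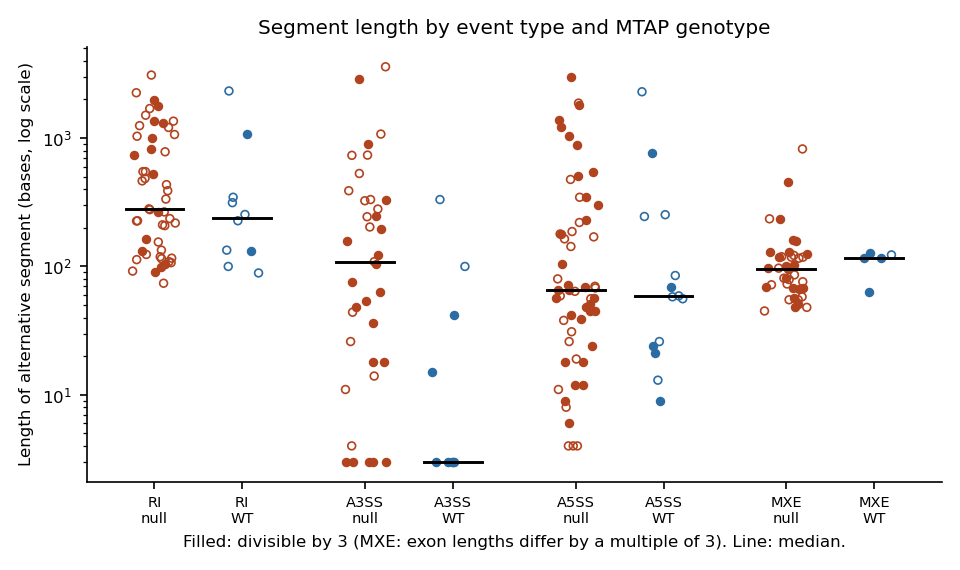
Length of the alternative segment (vertical axis, bases, log scale) for each event by type and genotype, MTAP-null left of MTAP-WT, with the median as a line. For exclusive exons the exon nearer the 5′ end is shown; filled points have a length divisible by 3, or exon lengths that differ by a multiple of 3. The 10 acceptor pairs 3 bases apart form the lowest row.

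Within coding sequence, lengths divisible by 3 were most common among donors in MTAP-null and in the pooled count, but not in MTAP-WT. For exclusive pairs the difference between the exon lengths was used. Over both genotypes, with each segment counted once, this held for 18 of 24 donor segments (75%) and 13 of 19 acceptor segments (68.4%). It also held for 11 of 19 exclusive pairs (57.9%), 11 of 32 retained introns (34.4%) and 99 of 195 coding skipped exons (50.8%). Divisibility alone does not keep a reading frame open. Of the 28 retained introns whose frame could be followed, 2 were divisible by 3 and held no stop in frame. Stops were not looked for in the other types. By genotype, 16 of 21 MTAP-null donor segments and 2 of 4 MTAP-WT ones were divisible by 3. For acceptor segments the counts were 8 of 13 in MTAP-null and 5 of 6 in MTAP-WT, and for exclusive pairs 9 of 17 in MTAP-null and 2 of 2 in MTAP-WT, while none of the 5 coding MTAP-WT retained introns was. Segments were not drawn at random and the groups are small, so these shares are given without a test.

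Of the gene lists, splicing regulators had the most members with events. The lists differ in size, and the share of all tested genes with a listed event is not known. This ranking therefore says nothing about enrichment. Of 109 listed regulators, 8 genes had 14 MTAP-null events, among 158 genes with MTAP-null events in all. Of the 14, 11 were higher in set 1 and 3 in set 2, beside 122 of all 183 (66.7%) higher in set 1. The 11 count LUC7L3 as 4 events and RBM39 as 3, some of which share reads. The median absolute difference was 0.21, beside 0.213 over all 183. In MTAP-WT the only one was CDK12. Core spliceosome genes had 2 events of 102 genes in MTAP-null, PPIE and PPIL2, and none in MTAP-WT. DNA replication and repair had 3 of 135 genes in MTAP-null, all higher in set 1 and all under 20 reads in a library, and none in MTAP-WT. The list does not hold MMS22L, which was lower in set 1. Mitosis and cell cycle had 4 events in 3 of 122 genes in MTAP-null and 2 events in CENPT in MTAP-WT. Translation had 3 of 82 genes in MTAP-null, 1 higher in set 1 and 2 in set 2. The methionine, polyamine and arginine methylation list of 49 genes had AHCYL2 in MTAP-null and PRMT5 in MTAP-WT. Chromatin and RNA modification had KAT6B of 148 genes, and p53 and apoptosis BCL2L1 in MTAP-null and PIDD in MTAP-WT of 54. The list of 62 genes of nonsense-mediated decay, the exosome and mRNA export had no event of these types.

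Only 3 genes had events in both genotypes, 1.90% of the MTAP-null and 8.57% of the MTAP-WT event genes, and each had the same segment in both. UFD1L, a cofactor of the p97 segregase, had the best covered one, with at least 693 reads. Its 26-base donor had 0.977, 0.981 and 0.98 in set 1 and 0.867, 0.891 and 0.855 in set 2 of MTAP-null. In MTAP-WT it had 0.97, 0.932 and 0.954 in set 1 and 0.884, 0.853 and 0.829 in set 2. The differences of 0.108 and 0.097 had the same sign, and the levels were alike. ZNF266, a zinc finger gene, had a 134-base intron in the 5′ UTR with 1, 1 and 0.826 in set 1 and 0.623, 0.602 and 0.694 in set 2 of MTAP-null. In MTAP-WT it had 1, 1 and 1 in set 1 and 0.261, 0.216 and 0.476 in set 2. MROH1 had a 132-base intron at chr8:144260545-144260676 with 1, 0.821 and 0.866 in set 1 and 0.696, 0.2 and 0.555 in set 2 of MTAP-null. In MTAP-WT it had 0.604, 0.409 and 0 in set 1 and 1, 0.675 and 1 in set 2, the opposite sign. ZNF266 and MROH1 rested on as few as 4 and 6 reads per library.

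The listed events of these types held fewer reads in MTAP-WT than in MTAP-null. Over all events with readable counts, 1 MTAP-null library held 106150 to 171403 reads on its 181 events, and 1 MTAP-WT library 4841 to 6103 reads on its 38 events. The median event had 115 reads in its shallowest library in MTAP-null and 5 in MTAP-WT. These are different events, so the numbers are not a measure of library depth. Listed skipped exons had a median of 79 reads in the shallowest library in MTAP-null and 75 in MTAP-WT, and the shared UFD1L donor had 714 to 1067 reads per library in MTAP-null and 693 to 937 in MTAP-WT. At least 20 reads in every library stood behind 127 MTAP-null and 11 MTAP-WT events. This counts both forms together, so the shorter form of a long segment can still have few reads. The median absolute difference was 0.19 and 0.177 in those events, and 0.413 and 0.527 in the 54 MTAP-null and 27 MTAP-WT events below 20 reads. Larger listed differences thus came from the shallower events in both genotypes.

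**Figure D4:**
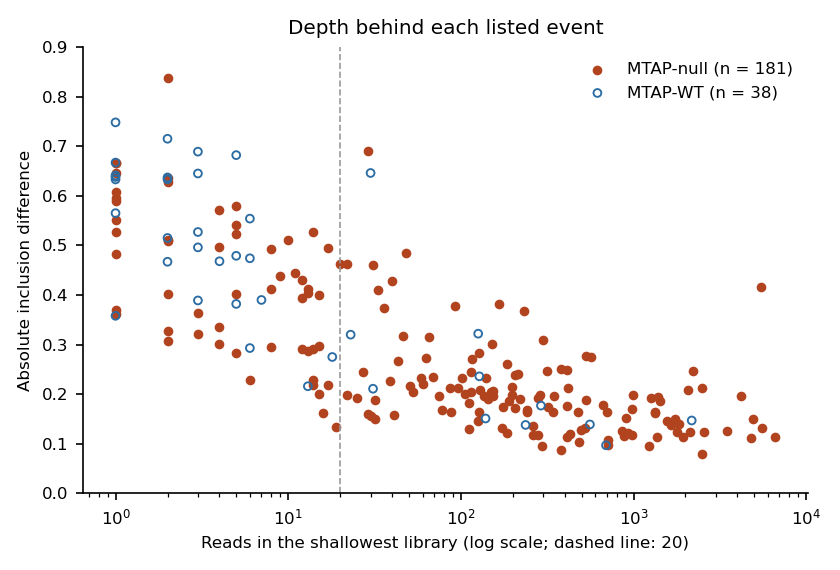
Absolute inclusion difference (vertical axis) against reads in the shallowest library (horizontal axis, log scale) for 181 MTAP-null events (filled) and 38 MTAP-WT events (open). Differences above 0.5 lie mostly left of the dashed line at 20 reads, where 27 of the 38 MTAP-WT events are.

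The authors' detained-intron table names its treatments and gives read counts per library, so it offers a second view of the same segments in MTAP-null. At 13 of the events, 11 features of that table overlapped the segment on the same strand, 6 with identical ends, counting the 5′ exon of an exclusive pair as its segment. All 11 features had higher usage, the share of the gene's reads, with AGI24512 in the authors' deposited table, beside 93.5% of all 1549 listed features. The authors listed these 11 from counts of the same libraries, with an adjusted p of at most 0.0169 in their usage test. A new test of those counts is therefore no independent support. By edgeR on the deposited counts all 11 rose with AGI24512, beside 77.6% of all listed, and none overlapped between groups, beside 81% of all listed. The median log2 change was 0.84, beside 0.95 over all 1549. Each of the 13 events had its higher inclusion in set 1, beside 66.7% of all 183 MTAP-null events, but RBM39 and CD44 each count a pair of events at one feature. In MTAP-WT none of the 258 features met an event. A rise in a feature's count mixes more RNA of the gene with a larger share of the segment. TMM scaling, which sets the bulk of the listed features to no change, brought the median of all features to 0.11 and left 2 of the 11 called, ANO9 and TAB3.

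RBM39 showed 2 such features. The one identical to the 226-base intron had normalised counts of 37.1, 46.5 and 57.8 with AGI24512 and 27.1, 25.3 and 27.9 with DMSO. This was 1.76-fold (log2 change 0.82, SE 0.25, edgeR adjusted p = 0.00848) but -0.04 on the log2 scale with TMM scaling. The one in the longer intron had 61.2, 77.1 and 99.7 with AGI24512 and 42.8, 53.4 and 36.1 with DMSO, 1.79-fold, and -0.01 on the log2 scale with TMM. DNAJC4, a J-domain protein, had 163.1, 112.3 and 118.4 with AGI24512 and 89.1, 104.9 and 82.6 with DMSO (1.42-fold, edgeR adjusted p = 0.0243), and -0.31 on the log2 scale with TMM. RAB24, a small GTPase of autophagy, had 12.1, 11.3 and 18.6 with AGI24512 and 6.12, 3.89 and 9.31 with DMSO, 2.22-fold (edgeR adjusted p = 0.0177).

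ANO9 had the largest rise, with 7.41, 11.3 and 12.1 with AGI24512 and 1.75, 0.97 and 3.49 with DMSO. That is 4.92-fold (log2 change 2.30, SE 0.53, edgeR adjusted p = 0.00159) on few reads. TAB3 rose 3.55-fold (edgeR adjusted p = 0.00049), with 19.5, 28.4 and 30.8 with AGI24512 and 6.12, 8.74 and 6.98 with DMSO. The features at alternative donors were ARGLU1, an arginine- and glutamate-rich splicing coactivator, at 2.39-fold, SLC35F5 at 2.18-fold, NOP56, a core protein of box C/D snoRNPs, at 1.79-fold, and RALGAPA1, a Ral GTPase-activating protein, at 1.41-fold. CD44 had the deepest feature, the 129-base exon of 2 exclusive pairs. Its counts were 1398, 1268 and 1301 with AGI24512 and 761.1, 760.7 and 772.9 with DMSO, 1.73-fold (edgeR adjusted p = 5.58e-06). With TMM scaling NOP56, RALGAPA1 and CD44 were at -0.02, -0.36 and -0.04 on the log2 scale.

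**Figure D5:**
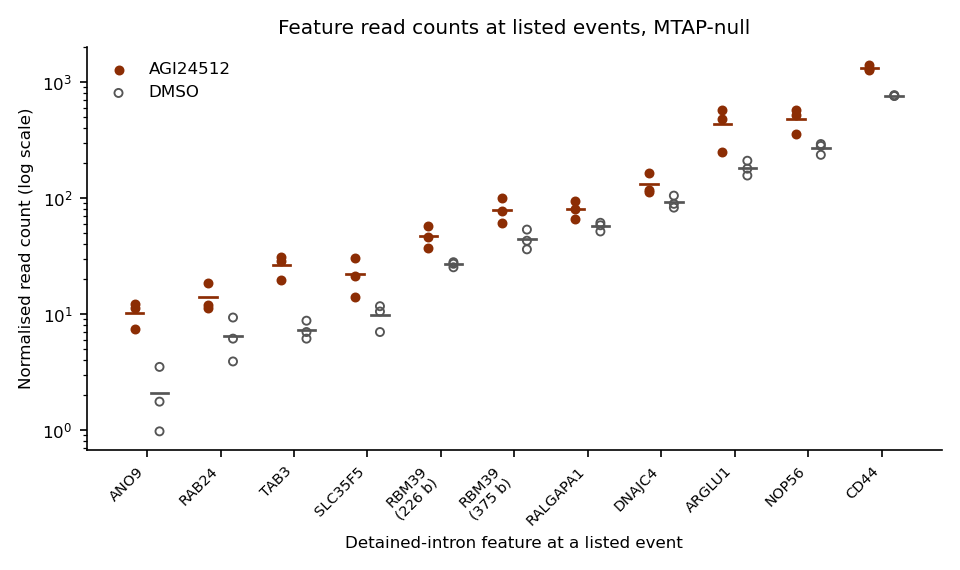
Normalised read counts (vertical axis, log scale) of the 11 detained-intron features at listed events in MTAP-null, with AGI24512 (filled) left of DMSO (open), one point per library and a line at the mean of 3. In every feature the AGI24512 libraries lie above the DMSO libraries, with the scaling of the deposited base means. With TMM scaling 6 of the 11 have a log2 change below 0.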

How the data were processed

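Poly-A-enriched RNA of 12 libraries was sequenced as paired ends, per the labels' protocols. No aligner, annotation or build was named for the tables (not given in the sources used here). Events were called with rMATS and features with DEXSeq, per the file headers. The rMATS tables hold the authors' read counts of each form, inclusion levels as a fraction, a deposited score (set 1 minus set 2), and the authors' p-value and FDR. The DEXSeq tables hold deposited raw read counts, a deposited base-mean signal, a usage score by the authors and a deposited log2 fold of DMSO over AGI24512, turned here. No count test was run on rMATS events.

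Separators missing from 291 of 884 count cells were restored where 1 split gave the deposited levels within 0.00051, which worked for all libraries of 219 of 221 events. Inclusion levels are normalised for length, the segment plus 94 bases for the inclusion form. Segments were matched to GENCODE 29 (GRCh38), where 200 of 221 were found exactly. Of 190 gene symbols, 158 were current, 26 were matched by an older symbol in RefSeq and 6 were not matched. Library sizes are not known. Wilson intervals (95%) were computed from form reads and cover counting error only.

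Feature counts were tested with edgeR 4.0.16 (R 4.3.3, quasi-likelihood, Benjamini-Hochberg over 1549 features, threshold 0.05), with size factors recovered from the base means. DESeq2 1.42.0 and TMM were alternatives. In simulated counts over these 1549 features, edgeR recovered 82% of changes of 1 and 95% of changes of 2 on the log2 scale, and called 1.04% of unchanged features. The simulation changed a minority of features, up and down alike, with known size factors. Most listed features rose in the real counts, so these rates do not cover the choice of scaling there. With 3 against 3 libraries an exact permutation test of 1 value cannot go below 0.1. The edgeR p-values cover only how far these libraries differ among themselves, which could be technical.

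Named events were, per type and genotype, the 8 with the largest absolute difference at 20 or more reads in every library, the 5 shortest and 5 longest segments, events in both genotypes, genes in the lists or with several events, and events at features. The members and lists were chosen with earlier results of these data known. A few events that meet this rule are not reported here.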

Additional observations from a re-analysis of the deposited data

Results flagged for a closer look

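MROH1 stood out because its retained intron moved in opposite directions in the genotypes. In MTAP-null all set 1 libraries lay above all set 2 libraries, with a deposited difference of 0.412, and in MTAP-WT all lay below, with -0.554. The difference between genotypes was not tested. The order of the sets is not stated for either genotype, and the shallowest library held 8 reads in MTAP-null and 6 in MTAP-WT.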

How the results depend on the processing

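With only events at an FDR under 0.01, MTAP-null kept 107 events, 70 higher in set 1, 97 without overlap and 53 with a segment divisible by 3. MTAP-WT kept 15, with 6, 14 and 5 of these kinds and a median absolute difference of 0.633. With at least 20 reads in every library, MTAP-WT kept 11, of which 4 were higher in set 1, 11 did not overlap and 5 had a segment divisible by 3, with a median difference of 0.177 and a median segment of 227 bases. These settings test fewer events by construction. Leaving out each library in turn left 122 MTAP-null and 13 MTAP-WT events higher in set 1. Events without overlap then numbered 165 to 172 (MTAP-null) and 33 to 35 (MTAP-WT). That number can only stay or rise when a library is left out, so it does not measure stability. The median absolute difference was 0.212 to 0.214 in MTAP-null and 0.416 to 0.474 in MTAP-WT. TMM scaling left 1 feature at retained introns and 2 at all events called as risen, and a mean of at least 20 counts left 3 and 7, because features were dropped. Leaving out a library left 4 to 5 and 9 to 10 called. The log2 change turned negative with TMM in DNAJC4 (-0.31), both RBM39 features (-0.0148 and -0.035), NOP56 (-0.0199), RALGAPA1 (-0.36) and CD44 (-0.0402). The call was lost in DESeq2 for RAB24 and RALGAPA1, and without 1 library for DNAJC4, RAB24, SLC35F5 and RALGAPA1. The cause was not tested. With the replicate number as a block all 11 features rose, and 1215 of 1549 did. Deviations from the group means correlated by 0.069, 0.038 and 0.008 between same-numbered libraries, so no pairing by number was detected. With means of 3 libraries over listed features only, this cannot decide whether the numbers pair the samples. No paired analysis was possible because the libraries within an rMATS set carry no replicate number.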
